A study of Mus musculus with 8 samples.

Results

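The Nr4a, Egr and AP-1 genes examined here are 10 transcription factor genes that T cells switch on through the antigen receptor. They are Nr4a1, Nr4a2 and Nr4a3, Egr1, Egr2 and Egr3, Fos and Fosl2, and Jun and Junb. They were taken by symbol, as a list of known activation factors drawn up with earlier results of these data known, and no threshold on a measured value selected them. Each of the 10 genes was measured by 1 probe set annotated to that symbol alone, and they stand among 19937 genes in all. The cells were regulatory T cells (Tregs), a CD4 lineage defined by the transcription factor FoxP3 that holds immune responses in check, sorted from mice as FoxP3+ cells. The arrays were 4 from Bcl6-/- (KO) mice, in preparations KO 1 and KO 2, and 4 from wild-type (WT) mice, in preparations WT 1 and WT 2, with arrays A and B of each preparation. All cells, KO and WT, were stimulated through CD3 and CD28 for 16 h before RNA extraction, and 100 ng of total RNA was labelled per array. The labels name no strain, age, sex or unstimulated sample. They do not say how FoxP3+ cells were recognised, whether cells of several animals were pooled, or whether arrays A and B are separate cell samples, so a p-value here reflects only the spread among these arrays, which may be technical.

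Stimulation of the T cell receptor activates calcium and MAP kinase signalling, and these pathways induce the 3 gene families within the first hours as immediate early genes. NR4A proteins are nuclear receptors that act without a known natural hormone, EGR proteins are zinc finger factors that bind GC-rich sites, and FOS and JUN proteins pair through leucine zippers to form AP-1. In Tregs the NR4A receptors help to maintain FoxP3 expression, EGR2 and EGR3 are known for restraining T cell activation, and JUNB acts in activated effector Tregs together with BATF and IRF4. BCL6, the repressor deleted in the KO mice, has been described in B cells as an antagonist of AP-1 activity. The arrays were taken long after the usual early peak of these genes, so their values are levels late in stimulation.

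The promoters of these genes hold some of the sites through which activation signals are known to reach them. They are shown because members of 1 family carry different elements and because Jun, Junb and Nr4a2 are the genes whose KO-labelled and WT arrays do not overlap as deposited. RefSeq windows of assembly GRCm38.p6, from 250 bases before to 50 bases after each start, matched 8 of the 10 genes. Egr1 and Egr3 had no matching entry. The bases just before the start are given 5′ to 3′ for Junb (chr8:84978749-84978888, minus strand), Jun (chr4:95052223-95052362, minus strand), Fos (chr12:85473750-85473889, plus strand) and Nr4a2 (chr2:57124004-57124133, minus strand). Single sites in 30 bases are given for Nr4a1 (chr15:101266775-101266804), Nr4a3 (chr4:48045145-48045174) and Egr2 (chr10:67537787-67537816), all on the plus strand. These single sites lie inside the annotated span of each gene, before a start within it, and Egr2 had windows at several starts.
Junb: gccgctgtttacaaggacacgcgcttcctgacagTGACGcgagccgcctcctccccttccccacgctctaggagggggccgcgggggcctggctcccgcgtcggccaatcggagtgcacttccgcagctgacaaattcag
Jun: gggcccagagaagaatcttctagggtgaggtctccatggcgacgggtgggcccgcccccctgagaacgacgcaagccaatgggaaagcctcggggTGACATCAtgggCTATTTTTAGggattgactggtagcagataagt
Fos: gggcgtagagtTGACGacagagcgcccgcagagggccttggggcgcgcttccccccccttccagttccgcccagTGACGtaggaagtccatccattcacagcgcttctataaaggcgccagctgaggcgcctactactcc
Nr4a2: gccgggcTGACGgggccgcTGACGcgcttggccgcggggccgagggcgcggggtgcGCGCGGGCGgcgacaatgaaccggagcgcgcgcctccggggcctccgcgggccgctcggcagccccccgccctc
Nr4a1: tgCGTCAgtggCGCCCCCGCccctctccat
Nr4a3: cctgtggcataaaTGACGtgccgagagagc
Egr2: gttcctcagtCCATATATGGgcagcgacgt
Capitals mark TGACG, the core of a cAMP response element, on either strand in Junb, Fos, Nr4a1, Nr4a2 and Nr4a3. In Jun they mark first a match to TGANNTCA, a spaced AP-1 or ATF site, and then a MEF2 element. In Nr4a1 and Nr4a2 they also mark GCGNGGGCG, an EGR site, and in Egr2 a CArG box, the site of serum response factor.

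Both strands of every window were searched for these motifs. TGACG was in 6 of the 8 genes with a window (Nr4a1, Nr4a2, Nr4a3, Egr2, Fos and Junb), and in 23% of the 27025 genes with a window. The full palindrome TGACGTCA, which contains TGACG and also matches TGANNTCA, was in 0 of the 8 and in 2.03% of genes. TGANNTCA was in Jun and Egr2, against 15.9% of genes, and the classical AP-1 site TGANTCA was in 0 of the 8, against 8.97%. GCGNGGGCG was in Nr4a1, Nr4a2 and Fosl2, against 6.27% of genes. The MEF2 element was in Jun and Nr4a2, against 3.7%, and the CArG box in Egr2 alone, against 1.81%. AAAGGTCA, the site for single NR4A proteins, was in 0 of the 8, against 1.7%. A match describes letters only, and a missing match says only that these letters are not in this window.

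The deposited values are log2 expression per probe set. The 8 arrays had nearly equal means of 7.16 to 7.23 log2, but their spread over probe sets differed, with SDs of 1.87 and 1.84 log2 in KO 1A and KO 1B, 1.65 and 1.61 in KO 2A and KO 2B, and 1.56 to 1.70 in WT. The Bcl6 probe set read 8.72 ± 0.236 log2 in KO-labelled arrays and 8.13 ± 0.255 in WT arrays (SD, n = 4 each), so it does not bear out the genotype labels, and which part of the gene it reads was not examined here. All directions below are therefore those of the labels. Averaged over Eif2s3y, Kdm5d and Uty, which are Y-linked, the level was 4.62 to 4.80 log2 in KO-labelled arrays and 6.94 to 8.30 in WT arrays, so sex and genotype cannot be told apart. Foxp3 was at 10.75 ± 0.311 log2 in KO-labelled and 9.91 ± 0.283 in WT arrays, and the Treg and T cell marker list (9 of its 10 genes measured) averaged 10.64 to 11.29 log2 in KO-labelled and 9.94 to 10.69 in WT arrays. B cell markers (7 of 8 measured) averaged 5.90 to 6.32 against 6.05 to 6.34 log2, myeloid markers (11 of 12) 6.40 to 6.69 against 6.36 to 6.72, and NK cell markers (4 of 4) 5.18 to 5.40 against 5.33 to 5.43. Dendritic cell markers (6 of 6) averaged 6.13 to 6.56 against 6.24 to 6.60, CD8 T cell markers (2 of 2) 7.16 to 7.58 against 7.40 to 7.73, and plasma cell markers (3 of 3) 7.16 to 7.41 against 7.02 to 7.18. Of the erythroid markers only Alas2 was measured (1 of 4), at 6.37 to 6.74 against 6.02 to 6.39 log2. Of all these markers 0 passed the test of KO against WT, and log2 array values have no zero that would mark a gene as off.

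None of the 10 genes passed the test of KO against WT, although all 10 means were higher in the KO-labelled arrays. The excess lay mostly in preparation KO 1. As deposited, Jun, Junb and Nr4a2 were the genes whose 4 KO-labelled arrays all lay above all 4 WT arrays, and after quantile normalization between arrays only Jun kept this separation. The limma test, with preparations as a random block and Benjamini-Hochberg adjustment over all 19937 genes, called 0 of the 10 higher and 0 lower at an adjusted p under 0.05, beside 0.12% of all genes called higher and 0.015% called lower. At an unadjusted p under 0.05, 2 of the 10 were higher, Jun and Junb, beside 5.65% of all genes. A difference above 0 was found for 43.2% of all genes, and the median difference was 0.32 log2 over the 10 genes and -0.06 over all genes. The median of all genes depended on level. It was -0.01 at a mean of 7 to 8 log2 and 0.34 at 8 to 9. At 9 to 10 it was 0.44 and at 11 to 12 it was 0.36. The 10 genes lie at these levels, so -0.06 is not a comparison at like level. After quantile normalization the medians of the 10 genes and of all genes were 0.10 and -0.01. There 7 of the 10 differences were above 0, beside 47.7% of all genes. The 3 others, Nr4a1, Egr1 and Egr3, had differences below 0 there. That setting also called 0 of the 10, beside 0.607% of genes higher and 0.181% lower.

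**Figure D1:**
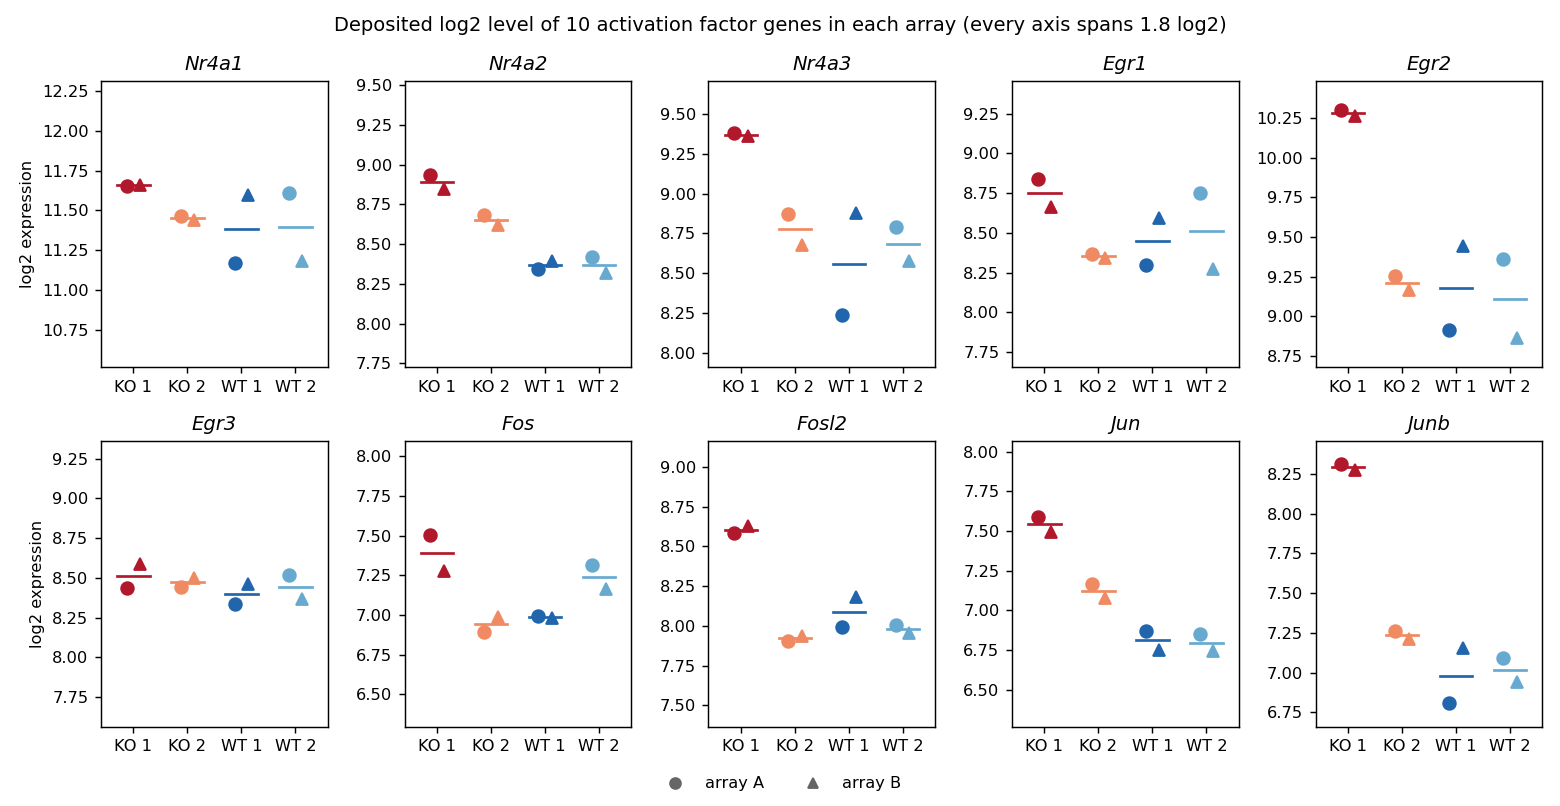
Log2 expression (vertical axis) of each of the 10 genes in every array, with the 4 KO-labelled arrays left of the 4 WT arrays, columns by preparation, circles for array A, triangles for array B, and a bar at the mean of each preparation. As deposited, Jun, Junb and Nr4a2 show no overlap between KO-labelled and WT arrays, while the points of KO 1 lie highest in most panels.

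Among the Jun genes, Junb had the largest difference of the 10. Junb (chromosome 8, 84976909 to 84978748 of GRCm38.p6) encodes an AP-1 subunit that pairs with FOS and BATF proteins. It read 8.31 and 8.27 log2 in KO 1 and 7.26 and 7.21 in KO 2, against 6.81, 7.15, 7.09 and 6.94 in WT. All 4 KO-labelled arrays were above WT, but KO 2 cleared the highest WT array by little and KO 1 by more than 1 log2. Junb averaged 7.77 ± 0.610 log2 in KO-labelled arrays and 6.999 ± 0.156 in WT arrays (SD, n = 4 each), a difference of 0.77 (SE 0.30), or 1.70-fold, with an adjusted p of 0.701 in limma. Against the WT mean the level was 2.45-fold in KO 1 and 1.18-fold in KO 2. After quantile normalization the groups overlapped, with KO 2B at 7.10 log2 and WT 1B at 7.19, and the difference was 0.67. In bulk RNA of this kind, more cells expressing a gene and more RNA per cell cannot be told apart.

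Jun, the founding AP-1 subunit, whose promoter stretch printed above holds the spaced AP-1 or ATF site beside the MEF2 element, lies on chromosome 4 (95049036 to 95052222). It read 7.59 and 7.50 log2 in KO 1 and 7.16 and 7.08 in KO 2, against 6.87, 6.75, 6.85 and 6.75 in WT. The WT arrays lay within 0.13 log2 of each other, and both KO preparations lay above them. Jun averaged 7.33 ± 0.248 log2 in KO-labelled arrays and 6.80 ± 0.0654 in WT arrays (SD, n = 4 each), 0.53 higher (SE 0.21; 95% interval 0.07 to 0.99), or 1.44-fold, with an adjusted p of 0.701 in limma. It was 1.67-fold the WT mean in KO 1 and 1.25-fold in KO 2. After quantile normalization the groups still did not overlap, and the difference was 0.55 (adjusted p = 0.197 in limma).

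Fos and Fosl2 encode FOS proteins, which cannot pair with themselves and join JUN proteins to bind DNA. Fos (chromosome 12, 85473890 to 85477274) read 7.50 and 7.28 log2 in KO 1 and 6.89 and 6.99 in KO 2, against 6.99, 6.98, 7.32 and 7.16 in WT. The groups overlapped, with KO 1B inside the WT range. Fos differed by 0.05 (SE 0.23; adjusted p = 0.902 in limma). Fosl2 (chromosome 5, 32136472 to 32157840) read 8.58 and 8.63 log2 in KO 1 and 7.90 and 7.94 in KO 2, against 7.99, 8.19, 8.01 and 7.95 in WT. KO 1 was above every WT array and KO 2 just below every one. The mean difference of Fosl2 was 0.23 (SE 0.25; adjusted p = 0.701 in limma), made of 0.57 for KO 1 minus WT and -0.11 for KO 2 minus WT. After quantile normalization these were 0.17 and -0.16.

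Of the Egr genes, Egr2 alone differed from WT by more than 0.5 log2 in a KO preparation. Egr2 (chromosome 10, 67534469 to 67542188), induced by the T cell receptor and a restraint on later activation, read 10.30 and 10.26 log2 in KO 1 and 9.25 and 9.17 in KO 2, against 8.91, 9.44, 9.36 and 8.86 in WT. KO 1 stood apart from the other 6 arrays, and KO 2 lay inside the WT range. The mean difference was 0.60 (SE 0.37; adjusted p = 0.701 in limma; 95% interval -0.21 to 1.41). Egr2 was 2.20-fold the WT mean in KO 1 and 1.05-fold in KO 2. After quantile normalization the mean difference was 0.32 (adjusted p = 0.508 in limma).

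Egr3 (chromosome 14, 70077317 to 70082613), which shares much of the function of Egr2 in T cells, had 8.44, 8.59, 8.44 and 8.50 log2 in the KO-labelled arrays (1A, 1B, 2A and 2B), against 8.34, 8.46, 8.52 and 8.37 in WT. Its arrays lay within a narrow band in both groups and overlapped. The difference was 0.07 (SE 0.22), with an unadjusted interval of -0.41 to 0.55 for this gene alone, so changes within that range are not excluded. The interval is not the detection limit of the adjusted test, because larger differences also failed it, such as Junb at 0.77 (adjusted p = 0.701 in limma). Egr1 (chromosome 18, 34861207 to 34864956), a classic immediate early gene of receptor signalling, had 8.84, 8.66, 8.37 and 8.34 log2 in the KO-labelled arrays, against 8.30, 8.59, 8.75 and 8.27 in WT, and the groups overlapped. Egr1 differed by 0.08 (SE 0.28; adjusted p = 0.885 in limma). After quantile normalization the differences were -0.17 for Egr3 and -0.18 for Egr1, and all 4 KO-labelled arrays of Egr1 then lay below all WT arrays (adjusted p = 0.612 and 0.594 in limma).

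Among the nuclear receptors, as deposited, Nr4a2 alone separated KO-labelled from WT arrays, and Nr4a3 had the widest split between KO preparations. Nr4a1 (chromosome 15, 101253902 to 101274795), also called Nur77 and widely used as a reporter of T cell receptor signalling, had 11.65, 11.66, 11.47 and 11.44 log2 in the KO-labelled arrays, against 11.17, 11.60, 11.61 and 11.18 in WT. The KO 2 arrays lay between the lower and the upper pair of WT arrays. Nr4a1 differed by 0.16 (SE 0.32; adjusted p = 0.786 in limma), and by -0.061 after quantile normalization.

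Nr4a2 (chromosome 2, 57106830 to 57124003), or Nurr1, had 8.93, 8.85, 8.68 and 8.62 log2 in the KO-labelled arrays, against 8.34, 8.39, 8.42 and 8.32 in WT. The groups did not overlap, and the 4 WT arrays lay within 0.0957 log2. Nr4a2 averaged 8.77 ± 0.143 log2 in KO-labelled arrays and 8.37 ± 0.0441 in WT arrays (SD, n = 4 each), 0.40 higher (SE 0.22; adjusted p = 0.701 in limma), with 0.52 for KO 1 minus WT and 0.28 for KO 2 minus WT. After quantile normalization the Nr4a2 difference was 0.14, with 0.035 for KO 1 and 0.24 for KO 2, and the KO 1 arrays (8.54 log2 each) lay below WT 1A (8.59). Nr4a3 (chromosome 4, 48045078 to 48086447), or Nor1, had 9.38, 9.36, 8.87 and 8.68 log2 in the KO-labelled arrays, against 8.24, 8.88, 8.79 and 8.58 in WT. KO 1 was above all WT arrays, while KO 2 overlapped them. The Nr4a3 difference was 0.45 (SE 0.32; adjusted p = 0.701 in limma), with 0.75 for KO 1 and 0.15 for KO 2, and 0.17 after quantile normalization.

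Counted over arrays as deposited, 3 of the 10 genes had no overlap between KO-labelled and WT arrays with KO higher, beside 6.67% of all genes. Both arrays of KO 1 lay above all WT arrays for 7 of the 10 (all but Egr1, Egr3 and Fos), beside 34% of all genes. Both arrays of KO 2 did so for 3 (Nr4a2, Jun and Junb), beside 9.54% of all genes, and lay below all WT arrays for 1, Fosl2, beside 4.75%. The mean of KO 1 was above the WT mean for all 10 genes, beside 42.7% of all genes. The mean of KO 2 was below it for 3 (Egr1, Fos and Fosl2), beside 43.3%, and both KO means were above it for the other 7, beside 27.6%. These comparisons share the 4 WT arrays. The percentages are over genes of every level, and KO 1 minus WT depended on level, as given below. After quantile normalization, a count added once the values had been seen, 1 of the 10 had no overlap with KO higher (Jun, beside 7.36% of all genes) and 1 with KO lower (Egr1, beside 4.73%). KO 1 was then above all WT arrays for 6 (Nr4a3, Egr2, Fos, Fosl2, Jun and Junb, beside 32.1%) and below all for 2 (Egr1 and Egr3, beside 26.3%). KO 2 was above all WT arrays for 2 (Nr4a2 and Jun, beside 9.58%) and below all for 2 (Egr1 and Fosl2, beside 9.37%). The order of WT arrays was also common to most of the genes: WT 1B and WT 2A both exceeded WT 1A and WT 2B for 8 of the 10 (all but Fos and Jun), beside 29.3% of all genes. Over probe sets WT 1A was closer to WT 2B, at a root mean square distance of 0.169 log2, than to WT 1B of its own preparation, at 0.429.

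Set against WT without a block, KO 1 alone gave 6 called genes of the 10, all higher (Nr4a2, Nr4a3, Egr2, Fosl2, Jun and Junb), where limma called 30.1% of all genes higher and 37% lower. KO 2 alone gave 0 of the 10, beside 0.642% of all genes called higher and 0.0803% lower. For Jun, the closest in KO 2, the difference from WT was 0.32 (SE 0.12; adjusted p = 0.528 in limma). When the SD of each array was a covariate, 2 of the 10 were called, both higher, beside 8.02% of all genes called higher and 4.43% lower. These were Nr4a2, at 0.27 (SE 0.06; adjusted p = 0.0115 in limma), and Jun, at 0.32 (SE 0.08; adjusted p = 0.0163), whereas Junb was at 0.20 (adjusted p = 0.144) and Egr2 at -0.00055.

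The KO preparations themselves differed for 6 of the 10 genes. In limma on preparation means, with arrays as separate samples, KO 1 was higher than KO 2 for Junb, Egr2, Fosl2, Nr4a3, Fos and Jun and lower for none of the 10, beside 27.7% of all genes called higher and 31% called lower, or 58.8% in either direction. Junb was 1.06 log2 higher in KO 1 than in KO 2 (SE 0.16; adjusted p = 0.00124), or 2.08-fold. Egr2 was 1.07 higher (SE 0.23; adjusted p = 0.00439), Fosl2 0.68 (SE 0.16; adjusted p = 0.00555) and Nr4a3 0.60 (SE 0.21; adjusted p = 0.0314). Fos was 0.45 higher (adjusted p = 0.0262) and Jun 0.42 higher (adjusted p = 0.0284). Egr1 (0.40; adjusted p = 0.0932), Nr4a2 (0.24; adjusted p = 0.201), Nr4a1 (0.21; adjusted p = 0.514) and Egr3 (0.04; adjusted p = 0.825) did not pass. In 9 of the 10 genes, Egr3 being the exception, both KO 1 arrays lay above both KO 2 arrays, beside 39% of all genes.

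The calls between KO preparations rested on 2 arrays each and moved with single arrays. Their SEs pooled the spread between arrays A and B of every preparation, WT included. Over probe sets the root mean square distance between A and B was 0.429 log2 in WT 1 and 0.223 in WT 2. In KO 1 it was 0.179 and in KO 2 it was 0.160. Junb alone stayed called when any 1 array was left out, with a highest adjusted p of 0.0378 without KO 1A. Without KO 1A the count was 1 of the 10, beside 3.81% of all genes called higher, and without KO 2B it was 1, beside 8.22%. Without KO 2A it was 3, beside 14.7%, and without KO 1B it was 4, beside 18.4%. After quantile normalization 4 of the 10 were higher in KO 1 than in KO 2, beside 13.5% of all genes called higher and 5.24% lower. These were Junb (0.89; adjusted p = 0.0141), Egr2 (0.63; adjusted p = 0.0254), Fos (0.58; adjusted p = 0.0233) and Jun (0.48; adjusted p = 0.0319), while Fosl2 (0.33; adjusted p = 0.0829) and Nr4a3 (0.13; adjusted p = 0.559) did not pass.

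**Figure D2:**
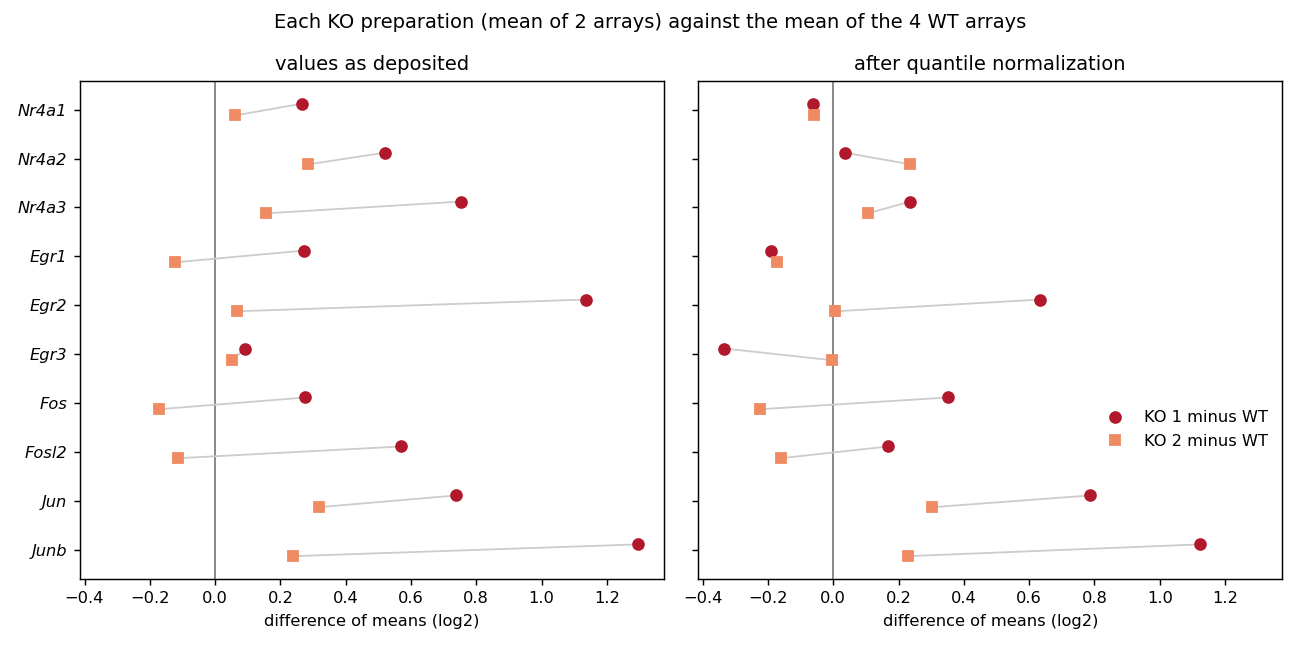
Difference from the WT mean in log2 for each of the 10 genes, as deposited in the left panel and after quantile normalization in the right panel, with circles for the mean of KO 1, squares for the mean of KO 2 and a line joining them. Egr2 and Junb lie farthest to the right in KO 1 as deposited, at 1.14 and 1.29, and stay highest with Jun after quantile normalization, at 0.63, 1.12 and 0.79.

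The difference between KO 1 and WT depended on level across the whole array, and the 10 genes sat on both sides of that trend. Among the 3219 genes with a mean of 8 to 9 log2, the median of KO 1 minus WT was 0.67, among the 1340 genes at 9 to 10 it was 0.80, and among the 5437 at 6 to 7 it was -0.41. For KO 2 minus WT the same medians were 0.03, 0.08 and 0.02. Fosl2 (0.57 in KO 1), Nr4a3 (0.75) and Nr4a2 (0.52) lay near the median of the 8 to 9 group. Egr1 (0.27) and Egr3 (0.09) lay below the lower quartile of that group, which was 0.29, and Nr4a1 (0.27) below the lower quartile of the 123 genes at 11 to 12, which was 0.28. Egr2, at 1.14, lay just above the upper quartile of its level, 1.09.

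The Jun genes and Fos lay at a level where the median shift was near 0 but single genes moved widely both ways. For the 5165 genes at 7 to 8 log2 the median of KO 1 minus WT was 0.02, with quartiles of -0.52 and 0.58, while Junb had 1.29, Jun 0.74 and Fos 0.28. In KO 2 the upper quartile there was 0.11, and Jun had 0.32 and Junb 0.24, whereas Fos had -0.17, below the lower quartile of -0.07. At 8 to 9 log2 Nr4a2, at 0.28 in KO 2, was above the upper quartile of 0.15, while Egr1 (-0.12) and Fosl2 (-0.11) were below the lower quartile of -0.07. The part that array spread has in these differences was not tested beyond the settings given.

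**Figure D3:**
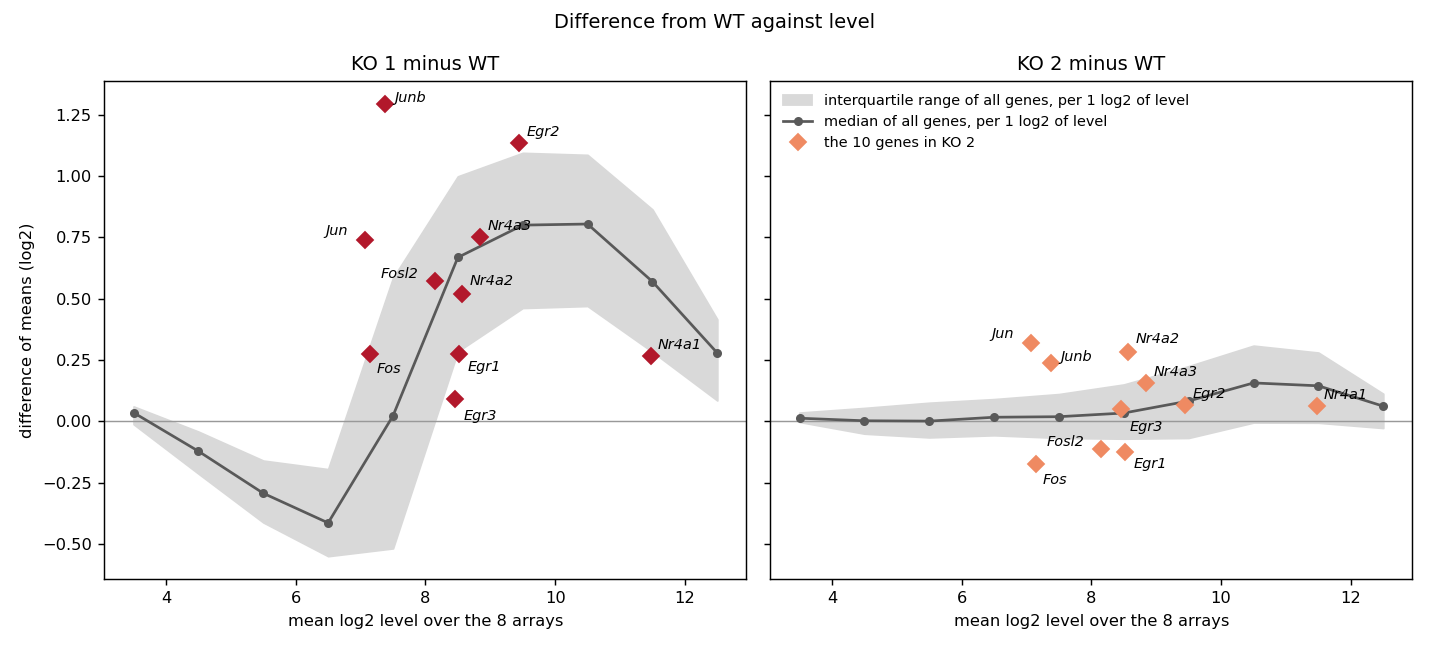
Difference of means in log2 (vertical axis) against the mean log2 level over the 8 arrays (horizontal axis), for KO 1 minus WT on the left and KO 2 minus WT on the right. Diamonds are the 10 genes, the line joins medians of all genes in steps of 1 log2 and the grey band their interquartile range; Jun and Junb lie above the band in both panels.

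The Treg and T cell marker list was also highest in KO 1, at 11.29 and 11.26 log2 in KO 1, 10.66 and 10.64 in KO 2, and 9.94, 10.69, 10.42 and 10.08 in WT. Its part in the members' differences was not tested.

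Related genes of the same pathways were read from 8 lists, which overlap, holding 131 measured genes in all. Of these, 1 rose in KO-labelled arrays, 0 fell and the rest did not pass. The median of all genes, -0.06, is not a comparison at like level for the list medians below. By level it was -0.19 at 6 to 7 log2, 0.34 at 8 to 9 and 0.44 at 9 to 10. For KO 1 minus WT the same medians were -0.41, 0.67 and 0.80. The lists were not compared with genes of like level. Among 20 other AP-1 and ATF or CREB family genes 0 passed in either direction, and 14 differences were above 0, with a median of 0.18. Batf, the partner of JUNB in effector Tregs, read 10.66 and 10.73 log2 in KO 1 and 9.12 and 9.16 in KO 2, against 7.66, 8.07, 7.95 and 7.77 in WT. Every KO-labelled array was above every WT array. Batf was 2.05 higher (SE 0.40) but did not pass at an adjusted p of 0.0825 in limma, and after quantile normalization it did, at 1.90 (adjusted p = 0.0198). Irf4, the other partner named above and read in the NR4A-linked list, was not higher, at -0.18 (SE 0.49; adjusted p = 0.837 in limma). It had 0.47 for KO 1 minus WT and -0.83 for KO 2 minus WT, with both KO 2 arrays below every WT array. After quantile normalization Irf4 was at -0.48. Bach2, a repressor that competes with AP-1 at shared sites, averaged 8.58 ± 0.15 log2 in KO-labelled and 9.48 ± 0.285 in WT arrays (SD, n = 4 each), a difference of -0.89 (SE 0.31; adjusted p = 0.581 in limma), with no overlap. After quantile normalization Bach2 passed, at -1.13 (adjusted p = 0.031). For Maf, a large MAF family factor, the difference was 1.42 (SE 0.47; adjusted p = 0.565 in limma). Jund, a further JUN gene, also had every KO-labelled array above WT, so this separation was not particular to Jun and Junb. Jund differed by 0.85 (SE 0.29; adjusted p = 0.597 in limma), with 1.08 for KO 1 and 0.63 for KO 2, and by 0.58 after quantile normalization.

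A list of another Egr gene, EGR corepressors and other zinc finger factors gave 0 passing genes of 5. Genes described as targets of EGR2 and EGR3 in T cells gave 0 of 19 measured. Nab1, a corepressor that binds EGR proteins, was at 8.84 ± 0.867 log2 in KO-labelled and 7.59 ± 0.237 in WT arrays (SD, n = 4 each), 1.25 higher (SE 0.40; adjusted p = 0.516 in limma), with 1.99 for KO 1 and 0.50 for KO 2. Nab2, the other corepressor of the list, was not higher, at -0.05 (SE 0.29; adjusted p = 0.928 in limma). It had 0.18 for KO 1 and -0.28 for KO 2, and -0.35 after quantile normalization. Wt1, a zinc finger factor with an EGR-like DNA site, differed by -0.35 and the T cell zinc finger factor Zbtb7b by 0.31 (adjusted p = 0.701 each in limma). The median over the target list was 0.04, and 11 of 19 differences were above 0. Of its genes Bhlhe40, a basic helix-loop-helix repressor, differed by 0.91 (adjusted p = 0.455 in limma), the costimulatory receptor Tnfrsf9 by 0.90 (adjusted p = 0.682; after quantile normalization it passed, at 0.74 and 0.0448) and the semaphorin Sema7a by 0.56 (adjusted p = 0.701). These 3 of the 19 had every KO-labelled array above WT, beside 6.67% of all genes. In 3 others, Dgkz (-0.54), Dgka (-0.35) and Id3 (-0.60), every one was below WT (adjusted p = 0.701 each in limma). The share of all genes below WT as deposited is not given here, and after quantile normalization it was 4.73%. After quantile normalization 1 gene of the list passed as higher and 1 as lower.

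Of 16 genes described as NR4A targets or linked to NR4A in T cells 0 passed, with 10 differences above 0 and a median of 0.32. Tigit, an inhibitory receptor of Tregs, read 11.08, 11.22, 10.44 and 10.37 log2 in KO-labelled arrays, against 8.73, 9.60, 9.42 and 9.05 in WT. The groups did not overlap, and KO 2 was also well above WT. Tigit was 1.58 higher (SE 0.39; adjusted p = 0.287 in limma), and after quantile normalization it passed, at 1.32 (adjusted p = 0.0182). The inhibitory receptor Havcr2 differed by 1.12 (adjusted p = 0.423 in limma) and Il2ra, the high-affinity interleukin-2 receptor chain, by 1.49 (adjusted p = 0.51). Ccr7 went the other way, at -0.89 (SE 0.30; adjusted p = 0.568 in limma), with every KO-labelled array below every WT array. After quantile normalization Ccr7 was at -1.19, and in that setting 1 gene of the list passed as higher and 1 as lower.

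The single gene that rose was Cd44, a hyaluronan receptor high on activated T cells, in the list of 15 genes driven by AP-1 and NFAT. Cd44 read 9.53 and 9.48 log2 in KO 1 and 8.80 and 8.71 in KO 2, against 7.11, 7.62, 7.32 and 7.23 in WT. Both KO preparations exceeded every WT array by more than 1 log2. The difference was 1.81 (SE 0.29; adjusted p = 0.0328 in limma), or 3.5-fold. Of the other 14 genes of that list 0 passed; 12 of the 15 differences were above 0, with a median of 0.30. The call was lost without any 1 of the arrays KO 1B, WT 2A and WT 2B, without preparation WT 1 or WT 2, after median centring, and with letters as a block, where 0 related genes passed. The count of related genes that passed was 2 without KO 2B and 4 without WT 1B. Icos, in the same list as Cd44, was 1.93 higher (SE 0.36; adjusted p = 0.0676 in limma), with no overlap, and 1.69 higher after quantile normalization. In that setting 2 genes of the list passed, both higher. As deposited, 4 genes of the list had every KO-labelled array above WT, beside 6.67% of all genes, and 1 had every one below. The share of all genes below as deposited is not given here, and after quantile normalization it was 4.73%.

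The upstream lists gave 0 passing genes of 18 measured for serum response factor, MEF2 and MAP kinase genes and 0 of 14 for NFAT and calcineurin genes, with medians of 0.11 and 0.32. Taken for KO 1 minus WT the medians came to 0.44 and 0.60, and for KO 2 minus WT to -0.10 and -0.03. The MAP kinase kinases Map2k4 (0.81) and Map2k1 (0.59), the kinase Mapk9 (0.57), the calcineurin subunits Ppp3cc (0.73) and Ppp3r1 (0.57) and the factor Nfatc2 (0.44) had the smallest p-values of these lists, each with an adjusted p of 0.701 in limma.

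Among 31 other immediate early and early response genes 0 passed, 22 differences were above 0 and their median stood at 0.29 (0.57 for KO 1 minus WT, -0.08 for KO 2 minus WT). Dusp5, a phosphatase of ERK, read 10.40, 10.35, 9.20 and 9.18 log2 in KO-labelled arrays, against 8.42, 8.53, 8.41 and 8.18 in WT, with no overlap. It was 1.40 higher (SE 0.33; adjusted p = 0.251 in limma), and after quantile normalization it passed, at 1.15 (adjusted p = 0.0397). Gadd45b, a stress response gene, differed by 1.36 (adjusted p = 0.411 in limma). Rgs2, an inhibitor of G protein signalling, differed in the other direction, with 7.45, 7.34, 7.31 and 7.24 log2 in KO-labelled arrays, against 7.98, 8.94, 8.57 and 8.57 in WT, and no overlap. Rgs2 differed by -1.18 (SE 0.34; adjusted p = 0.424 in limma), by -1.12 in KO 1 and -1.24 in KO 2, and after quantile normalization it passed at -1.32 (adjusted p = 0.0259).

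**Figure D4:**
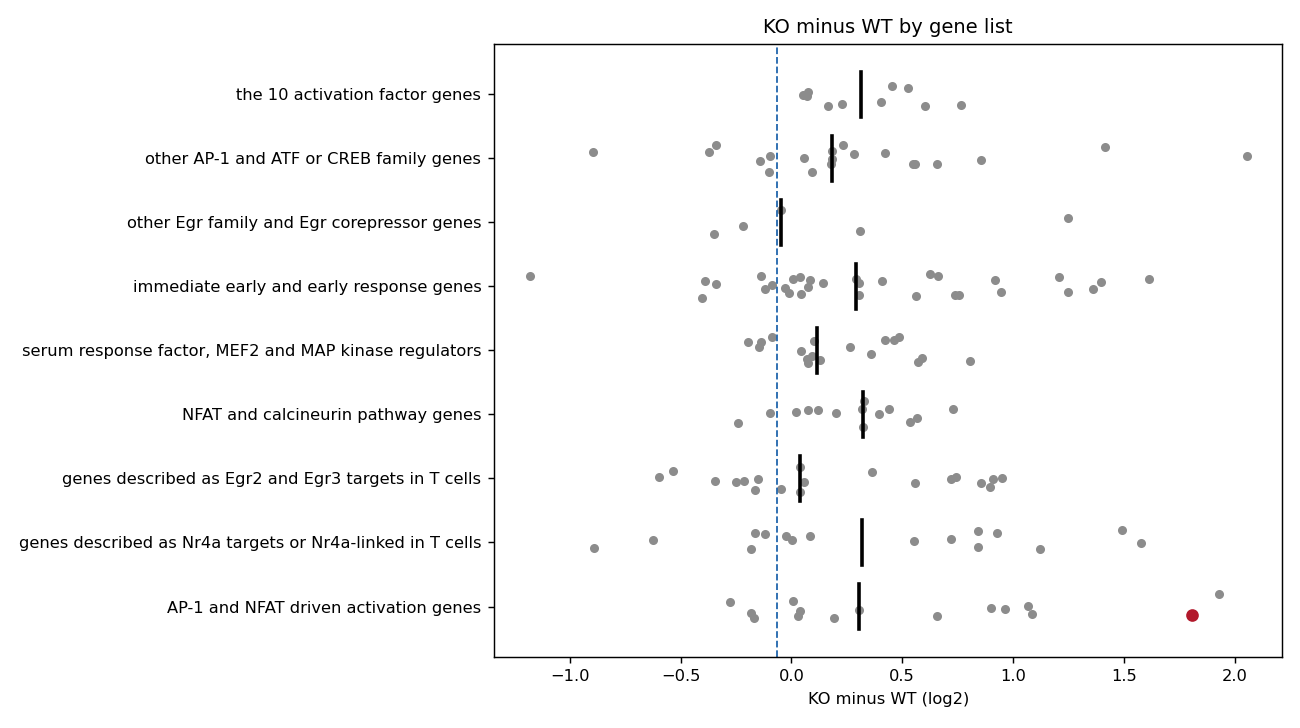
Difference in log2 between KO-labelled and WT arrays for the measured genes of the 8 related lists and the 10 activation factor genes, 1 point per gene, with the median of each list as a bar and the median of all genes, -0.06, as a line. Cd44 is the only called gene. The median of all genes depended on level, so the line is not a comparison at like level.

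The genes whose pattern over the 8 arrays was most like that of each family were found by Pearson correlation with the mean of the centred members, among 14405 genes with a mean of at least 6 log2, leaving out the 10 genes themselves, olfactory receptors, antigen receptor segments and predicted genes. For the Nr4a genes these were Vcp (r = 0.997), Hspa4 (0.997) and Sdha (0.996), for the Egr genes Dusp7 (0.994), Fbxo4 (0.992) and Bcor (0.992), and for the Fos genes Sertad2 (0.992), Trmt5 (0.989) and Mecr (0.986). For the Jun genes they were Ccr4 (0.999), Calcrl (0.998) and Rrm2 (0.998). The Jun pattern had KO 1 highest, KO 2 between and WT lowest, and Ccr4, a chemokine receptor of activated Tregs, followed it with 2.29 for KO 1 minus WT and 0.68 for KO 2 minus WT. Calcrl, a peptide hormone receptor, had 3.64 and 0.97, and Rrm2, a subunit of ribonucleotide reductase, 2.61 and 0.82. The Fos pattern had KO 2 lowest, with Mecr at 0.64 in KO 1 and -0.22 in KO 2. These values describe 8 arrays that share the split between preparations and the differing spread.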

How the data were processed

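Tregs of 4 KO-labelled and 4 WT arrays (2 preparations a group, 2 arrays each) were measured on Affymetrix arrays after whole-transcript labelling of total RNA, per the labels' protocols. Per the submitters' processing notes, the authors used Partek and RMA, and the deposited values are log2 expression summaries of probe sets. Versions of both were not given in the sources used here. As background, RMA usually equalises arrays, yet the deposited arrays differ in spread, which can widen or narrow differences for genes of a given level. The table holds 28768 probe sets, of which 21771 have 1 gene symbol in the platform annotation, 1557 several and 5440 none. For 999 genes with several probe sets the one with the highest mean was used, leaving 19937 genes. There was no filter on dim probe sets. The number of arrays limits the precision.

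The test of KO against WT was that of limma 3.58.1 (R 4.3.3; functions lmFit and eBayes, trended variance), two-sided, with preparation as a random block through duplicateCorrelation (correlation 0.617), and Benjamini-Hochberg adjustment over all genes. KO 1 and KO 2 were compared on preparation means with no block. SE values are those of fitted log2 differences, and folds are powers of them. The fits were tested on simulated data. Replicate numbers are shared between KO and WT, but the labels do not say that they mark a pairing, and with 2 numbers they were not treated as one. Alternatives covered blocks, scaling, array SD, a filter at 6 log2, probe set choice and leaving out arrays or preparations. Scaling shifted the median difference of all genes to -0.01 (quantile normalization) or 0.04 (median centring), against -0.06 as deposited.

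The members and gene lists were chosen with earlier results of these data known. Named genes were all members, for each related list the called genes or else the 3 with the smallest p, the 3 genes most like each family, and Bcl6, Foxp3 and 3 Y-linked genes. Icos, Ccr7, Dgkz, Dgka, Id3, Irf4, Nab2 and Jund were named outside this rule, after the values had been seen. Promoters and positions are from RefSeq, GRCm38.p6.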

Additional observations from a re-analysis of the deposited data

Results flagged for a closer look

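For 6 of the 10 genes the difference from WT was itself different between KO 1 and KO 2, by the limma test of KO 1 minus KO 2. The size of that difference was 1.07 log2 for Egr2, 1.06 for Junb, 0.68 for Fosl2, 0.60 for Nr4a3, 0.45 for Fos and 0.42 for Jun, each higher in KO 1. The same test called 58.8% of all genes, and the arrays of KO 1 had the widest spread of values. The part of that spread in these differences was not tested. No single array stood far from the other 3 of its group by Dixon's criterion in any of the 10 genes, in KO-labelled or in WT arrays. That criterion looks for 1 array apart from the rest, so it cannot flag a preparation whose 2 arrays moved together.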

How the results depend on the processing

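For KO minus WT of the 10 genes, 199 values under other settings kept their direction and their side of the threshold, 8 passed it and 13 changed sign. Sign changes came with quantile normalization for Nr4a1 (-0.0605), Egr1 (-0.18) and Egr3 (-0.17), with array SD as a covariate for Egr1 (-0.16), Egr2 (-0.00055), Fos (-0.16) and Fosl2 (-0.14), without KO 1 for Egr1 (-0.12), Fos (-0.17) and Fosl2 (-0.11), and without WT 1 for Fos (-0.075). Leaving out single arrays gave -0.030 to 0.19 for Egr1 and -0.035 to 0.10 for Fos. Members called numbered 2 with array SD and 6 without KO 2. Members with no overlap and KO higher numbered 1 after quantile normalization, against 3 as deposited, a setting chosen for this count after seeing the data. Genes called, 27 in the fit reported, numbered 113 with no block, 52 on preparation means, 16 with letters as a block, 157 after quantile normalization, 14 after median centring, 2483 with array SD, 144 without KO 1, 13377 without KO 2, 12 without WT 1, 6 without WT 2, and 15 to 57 without single arrays. Related genes called, 1 in the fit reported, numbered 5, 3, 0, 10, 0, 57, 7, 81, 0 and 0 in the same order of settings, and 0 to 4 without single arrays. With the replicate number as a replicate block, 677 genes, 22 related genes and 0 members were called; KO 1 minus KO 2 and WT 1 minus WT 2 correlated at 0.416 over genes. For KO 1 minus KO 2, 121 values kept direction and side, 18 no longer passed and 6 newly passed; quantile normalization turned Nr4a1 (-0.0010), Nr4a2 (-0.20), Egr1 (-0.019) and Egr3 (-0.33) and left 3738 genes called of 11714. Single arrays left out gave -0.034 to 0.12 for Egr3, 1 to 7 members and 868 to 14970 genes called. The causes were not tested.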
